A study of Mus musculus with 4 samples.

Results

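The cells described here are the barcodes of the 24 h library in which the chemokine genes Ccl2 and Ccl7 were most abundant. A barcode, the tag of 1 bead, was counted as high when it had 2000 or more counts and its Ccl2 and Ccl7 counts together made up at least 5 of every 10000. The rule found 164 high barcodes among 822 barcodes of that depth, in a library of 1328 barcodes and a series of 3298. They were set against the 431 barcodes of the same library and depth in which the sum was 0, called sum-0 barcodes below. The other 227 barcodes lay in between. Because the barcodes were chosen by their Ccl2 and Ccl7 counts, their own values are a description, and both genes were left out of every comparison.

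Ccl2 and Ccl7 encode secreted chemokines that draw monocytes carrying the receptor Ccr2 out of blood and into injured tissue. Their genes stand next to each other in a chemokine cluster and are classic targets of NF-κB, a transcription factor that inhibitors hold in the cytoplasm until an inflammatory signal removes them. In injured kidney, tubule cells and mesenchymal cells are both known to make Ccl2.

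The cells were primary kidney Gli1+ cells from male mice aged 12 weeks, a mesenchymal population that can become myofibroblasts, measured with Drop-seq. The groups used here are a control harvested after 2 h without serum and cultures kept 6 h, 12 h and 24 h with 1 ng/ml TGF-β after those 2 h. Each group had 1 library, so there is no replicate check and no test. Barcodes of 1 library are not replicates, intervals in parentheses are exact 95% intervals for counting error only, and they do not say how another culture would differ. Time with TGF-β and time without serum cannot be told apart, since each treated culture had its own length of both.

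The control library held 106826 counts, the 6 h library 778793, the 12 h library 5687966 and the 24 h library 6166324. Of their barcodes, 0, 50, 733 and 822 had 2000 or more counts. The control library goes against its label: proximal tubule markers made up 15577 CPM there and 5.514 CPM at 24 h, and mesenchymal markers 56.17 and 6549 CPM. It is used only for its Ccl2 and Ccl7 counts. No barcode sequence was found in more than 1 library.

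Levels are given as CPM, counts scaled to a common total of 1e+06. The control library had no count of either gene, which allows up to 28.1 CPM (3 counts of its total). A level like that of Ccl7 at 6 h can therefore not be excluded there. At 6 h Ccl2 had 55.2 CPM (39.96 to 74.4) and Ccl7 had 24.4 CPM (14.7 to 38.1). At 12 h Ccl2 had 135 CPM (125 to 145) and Ccl7 had 155 CPM (145 to 165). The 24 h library had 175 CPM of Ccl2 (165 to 186) and 183 CPM of Ccl7 (172 to 194), the highest of the 4 libraries for both. The share of barcodes that met the rule was 6% (1.25% to 16.5%; 3 of 50) at 6 h, 16.6% (14.02% to 19.5%; 122 of 733) at 12 h and 19.95% (17.3% to 22.8%; 164 of 822) at 24 h. The intervals of neighbouring times overlap. After every barcode was thinned to 2000 counts, by drawing that many at random without replacement, 8% of barcodes at 6 h, 28.2% at 12 h and 31.5% at 24 h kept a count of either gene. Such shares include any free RNA in the droplets, whose level was not measured.

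By the choice of barcodes, the 164 high barcodes held most of the 2 chemokines, 1707 of the 2210 Ccl2 and Ccl7 counts of the whole 24 h library (77.2%), 845 of Ccl2 and 862 of Ccl7. The median high barcode had 7 counts of the pair and the highest had 62. By level, 68 high barcodes lay between 5 and 10 per 10000, 57 between 10 and 20, and 39 at 20 or more. The limit at 5 cuts a continuous range: the last barcode inside had 1 count of 2000, or 5 per 10000, and the first outside had 1 count of 2002, or 4.995. In 11 high barcodes the rule rested on 1 or 2 counts.

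Of the high barcodes 132 had both genes, 10 had Ccl2 alone and 22 had Ccl7 alone, a description of barcodes chosen for a high sum. By rate per 10000 the highest had 20 Ccl2 and 17 Ccl7 counts of 5735, and the next had 12 of each of 4604. Over all barcodes of the depth, whatever their sum, Ccl2 was found more often in barcodes with Ccl7 than in those without. Over all 822 thinned barcodes, which include those outside the rule, Ccl2 was found in 72 of 177 barcodes with Ccl7 (40.7%, 33.4% to 48.3%) and in 82 of 645 without it (12.7%, 10.2% to 15.5%). At 12 h the same shares were 38.3% (30.2% to 46.9%) and 11.1% (8.73% to 13.96%). Their counts had Pearson's r of 0.53 and Spearman's rho of 0.34 over the 822 barcodes of 24 h, and 0.37 and 0.31 over the 733 of 12 h, as a description of barcodes that share 1 library.

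**Figure D1:**
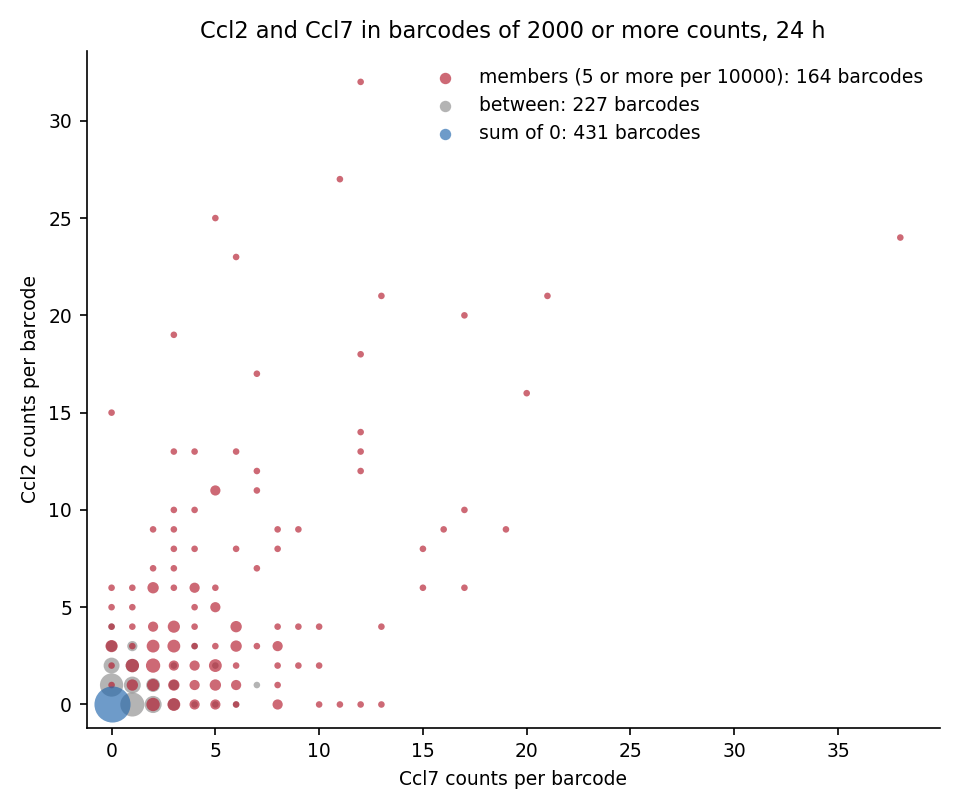
Counts of Ccl7 (horizontal) and Ccl2 (vertical) in each 24 h barcode of 2000 or more counts; larger points stand for more barcodes with the same pair of counts. High barcodes (red, "members") spread along both axes up to 62 counts in all, the 227 barcodes between lie near the origin, and the 431 sum-0 barcodes share 1 point.

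The balance of the 2 genes differed from barcode to barcode. Among the 63 high barcodes with 10 or more counts of the pair, Ccl2 made up 50% of them at the median, 32.7% at the lower quartile and 68.8% at the upper. Ccl2 led in 31 of these and Ccl7 in 25. Only 4 had no Ccl2 and 1 had no Ccl7.

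Spread between cells was wider for this pair than for nearly all genes of like level. Of the 1607 genes with a mean of 0.2 to 1 count in the thinned 24 h barcodes, the median ratio of variance to mean was 1.03, close to the 1 that counting error gives. Acta2, the smooth muscle actin of myofibroblasts, had the highest ratio at 2.83, followed by Ccl2 at 2.72 and Ccl7 at 2.54. Vcam1, an adhesion molecule for leukocytes, came next at 2.08. At 12 h Ccl2 was first of 1753 genes at 2.78 and Ccl7 was among the 4 highest at 1.86.

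Ccl2 lies at chr11:82035571-82037453 and Ccl7 at chr11:82045712-82047525 on the same strand (mm10; GENCODE M21), 8258 bases apart. No stretch of 51 bases in the last 600 bases of their transcripts is shared between them or with the neighbouring chemokines Ccl12, Ccl8, Ccl11 and Ccl1. Gm17268 overlaps Ccl2 on the other strand, and whether reads were counted by strand is not known, so the 2 cannot be told apart.

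The high barcodes were mesenchymal by their markers. The mesenchymal list (9 of 10 genes in the table) summed after thinning to 6214 CPM (5947 to 6490) in high barcodes and 6599 CPM (6428 to 6772) in sum-0 barcodes. It was carried by Col1a2 at 2962 and 3385 CPM and Fbln2 at 2330 and 2304 CPM. With full counts the list came to 5994 and 6729 CPM. Dcn and Postn, often used as fibroblast markers, had no full count in high barcodes and 2 and 4 full counts in sum-0 barcodes. Thy1, also on the list, had 2 full counts in high barcodes and 8 in sum-0 barcodes. Markers of macrophages, which also make these chemokines, were near 0 in both groups. Of 15 macrophage markers 10 were in the table, and their full counts came to 15 in high barcodes (12.9 CPM) and 35 in sum-0 barcodes (12.6 CPM), with at least 1 in 7.93% and 7.89% of barcodes. At 12 h they came to 15.6 and 14.4 CPM. Ptprc, the antigen of all leukocytes, Cd68 and Tyrobp had no count in high barcodes and 1, 4 and 0 counts in sum-0 barcodes. The lists that follow were summed from full counts as well. Endothelial markers summed to 4.31 and 6.82 CPM, proximal tubule markers to 6.89 and 6.46 CPM and general epithelial markers to 1.72 and 5.38 CPM. Lymphocyte markers and those of the loop of Henle and later tubule had no count in high barcodes, against 2 and 4 counts in sum-0 barcodes. The podocyte list came to 143.9 and 192.3 CPM, with its defining genes Nphs1 and Wt1 at 0 in both groups, and the Schwann cell list to 225 and 270.1 CPM. What part cells of other types had in the differences below was not tested.

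Depth and RNA content were close in the 2 groups. High barcodes had a median of 5722 counts and sum-0 barcodes 5363. After thinning to 2000 counts they had 1219 and 1212 genes at the median, 1.93% and 1.86% mitochondrial counts, 14.5% and 14.3% ribosomal protein counts and 1.23% and 1.29% Malat1, a nuclear RNA. Scrublet called 2 high and 6 sum-0 barcodes doublets, and 22 and 63 barcodes lay 1 base from another barcode of the library. A count of a cell cycle gene (Mki67, Top2a, Cdk1, Ccnb1 or Cdc20) was seen in 7.32% (3.84% to 12.4%) of thinned high barcodes and 4.18% (2.49% to 6.52%) of thinned sum-0 barcodes, and in 23.8% and 16.01% without thinning. The part of the cell cycle in the differences below was not tested.

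Away from Ccl2 and Ccl7, few genes stood apart. Each barcode was thinned to 2000 counts, and a gene was called at 1.5-fold or more on the scale of log2 (CPM + 10), which understates differences of low genes. Of 2094 genes at 100 CPM or more in either group, 43 were higher in high barcodes (2.05%) and 28 lower (1.34%). TMM factors turned this balance to 22 higher and 45 lower, and DESeq2 size factors to 24 and 43. Thinned counts are few, so the counts before thinning were summed as well, which lowers counting error but weights deep barcodes more. There, 11 of 2012 genes were higher (0.547%) and 11 lower (0.547%). Of these, 7 higher and 9 lower genes were also called after thinning.

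Spp1, osteopontin, a secreted matrix protein and cytokine made by injured kidney, stood furthest apart (chr5:104435118-104441050, plus strand, overlapped there by Gm42793; mm10, as are the positions below). It reached 186 CPM (142 to 239) in thinned high barcodes and 26.7 CPM (16.9 to 40.0) in sum-0 barcodes, a log2 ratio of 2.42, and 170 and 25.8 CPM with full counts, a ratio of 6.58 (4.999 to 8.74). Its 61 thinned counts came from 12.2% of high barcodes, at most 8 from 1 of them, and the 23 in sum-0 barcodes from 2.55% of them. Most high barcodes therefore had no Spp1 count at this depth. Across the classes its level was 26.7 CPM at a sum of 0, 46.3 CPM between, and 125, 193 and 283 CPM in the 3 bands of high barcodes from low to high, where intervals of neighbouring bands overlap.

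Nfkbia, which encodes the NF-κB inhibitor IκBα and is itself switched on by NF-κB (chr12:55489410-55492647, minus strand), had 284 CPM (229 to 348) in high barcodes and 98.6 CPM (78.8 to 122) in sum-0 barcodes. The log2 ratio was 1.44 thinned and 1.39 with full counts, a ratio of 2.78 (2.36 to 3.28). Vcam1 (chr3:116109949-116129688, minus strand, with Gm43109 antisense to it) had 534 CPM (458 to 620) and 200 CPM (171 to 232), a log2 ratio of 1.38 both ways. It was counted in 50.6% of high barcodes and 28.1% of sum-0 barcodes. Slc7a2, a carrier of arginine and lysine, had 125 CPM (89.8 to 170) and 33.6 CPM (22.5 to 48.3), a log2 ratio of 1.63 thinned and 1.40 with full counts. At 20 or more per 10000, Vcam1 reached 926 CPM (725 to 1166) and Nfkbia 463 CPM (324 to 641), above the intervals of both in sum-0 barcodes. Nfkbia did not rise steadily, with 250 CPM at 5 to 10 per 10000 and 202 CPM at 10 to 20.

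The other genes higher both ways were Ank, a pyrophosphate transporter, Mgst1, a microsomal glutathione transferase, and Nfkbiz, a nuclear relative of the NF-κB inhibitors. Ank had 162 CPM in high barcodes and 66.1 CPM in sum-0 barcodes, a log2 ratio of 1.17 thinned and 0.78 with full counts. Mgst1 had 122 and 75.4 CPM, with log2 ratios of 0.63 and 0.86. Nfkbiz had 208 and 131 CPM, with log2 ratios of 0.63 and 0.64. In 2 other random draws and with barcodes paired by depth, Spp1, Slc7a2, Nfkbia, Vcam1 and Mgst1 stayed past 1.5-fold each time, while Ank fell short in the third draw (0.53) and paired (0.58), and Nfkbiz in the second draw (0.32) and paired (0.45). With full counts alone Mmd (log2 ratio 1.00), Hmga2 (0.77), a chromatin protein of immature mesenchyme, Igfbp4 (0.72), which binds insulin-like growth factors, and Cd47 (0.60), the signal that holds off phagocytes, passed as well.

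The rest of those named among the 15 highest thinned genes stood apart less with full counts. Man1a, Oaf, Ptprn, Idh3g, Crot, Ube2z, Jtb, Sdc1 and Dpy19l1 had log2 ratios of 1.06 down to 0.76 thinned, and of 0.55 (Man1a) down to 0.08 (Crot) with full counts, where none of them passed. They are therefore not described as higher.

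**Figure D2:**
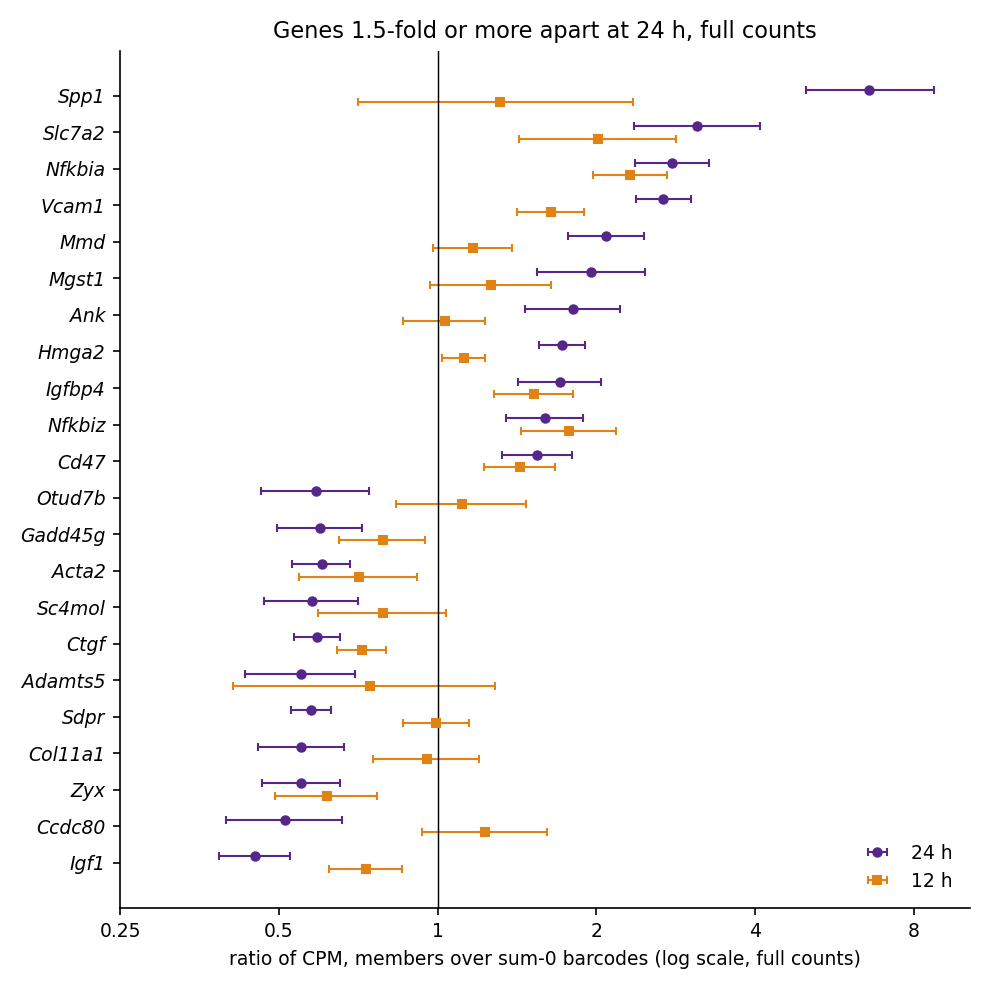
Ratio of CPM in high barcodes ("members") over sum-0 barcodes, full counts, on a log axis, for the 22 genes 1.5-fold or more apart at 24 h, with exact 95% intervals for counting error; circles are 24 h and squares 12 h. At 24 h Spp1 lies furthest right at 6.58 and Igf1 furthest left at 0.451, and at 12 h Nfkbia lies near its 24 h value while Spp1, Ank, Sdpr and Otud7b lie near 1.

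Igf1 was furthest below with full counts among the genes lower both ways. This growth factor (chr10:87858265-87937042, plus strand, with Igf1os antisense to it) had 211 CPM (164 to 267) in high barcodes and 346 CPM (308 to 387) in sum-0 barcodes, a log2 ratio of -0.69, and -1.11 with full counts, a ratio of 0.451 (0.385 to 0.525). Ctgf, a matricellular protein driven by TGF-β and by the YAP coactivator, had 376 CPM (312 to 448) and 624 CPM (572 to 679), with log2 ratios of -0.72 and -0.74. Sdpr, now named Cavin2, which shapes the membrane pits called caveolae, had 568 CPM (489 to 656) and 939 CPM (875 to 1005), with log2 ratios of -0.71 and -0.79.

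Acta2 (chr19:34241090-34255590, minus strand) had 263 CPM (210 to 324) in high barcodes and 401 CPM (360 to 446) in sum-0 barcodes, with log2 ratios of -0.59 thinned and -0.71 with full counts. It was counted in 25.6% of high barcodes and 35.03% of sum-0 barcodes. Across the classes its level was 401 CPM at a sum of 0, 399 CPM between, and 361, 255 and 103 CPM in the bands of high barcodes from low to high. Only in the top band did the interval of 44.4 to 203 CPM lie wholly below that of the lowest band, 267 to 477 CPM. Zyx, an adaptor of actin filaments at focal adhesions, had 153 and 240 CPM in high and sum-0 barcodes, with log2 ratios of -0.62 and -0.82.

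Sc4mol, now named Msmo1, a demethylase of cholesterol synthesis, had 64.1 and 155 CPM in high and sum-0 barcodes, with log2 ratios of -1.16 thinned and -0.74 with full counts. Gadd45g, a stress and growth arrest gene, had 97.7 and 224 CPM, with log2 ratios of -1.12 and -0.70. Ccdc80, a secreted matrix protein, had 61.1 and 118 CPM (-0.85 and -0.87), and Otud7b, a deubiquitinase that restrains NF-κB, had 70.2 and 146 CPM (-0.96 and -0.70). In the same draws and pairing Igf1, Sdpr, Sc4mol and Ccdc80 stayed past 1.5-fold each time. Acta2 fell short in the second (-0.43) and the third draw (-0.55), Otud7b in the second (-0.42), the third (-0.39) and paired (-0.52), Ctgf (-0.48) and Zyx (-0.54) in the third, and Gadd45g (-0.58) in the second. With full counts alone Adamts5, a protease of matrix proteoglycans, at -0.78 and Col11a1, a fibrillar collagen, at -0.81 passed as well. The rest of the 15 lowest thinned genes (Lima1, Klf4, Lsm7, Phf17, Sri, Ssu72, Abhd17a and Rnf11) had log2 ratios of -0.58 (Lima1) to -0.11 (Abhd17a) with full counts, and none passed there.

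**Figure D3:**
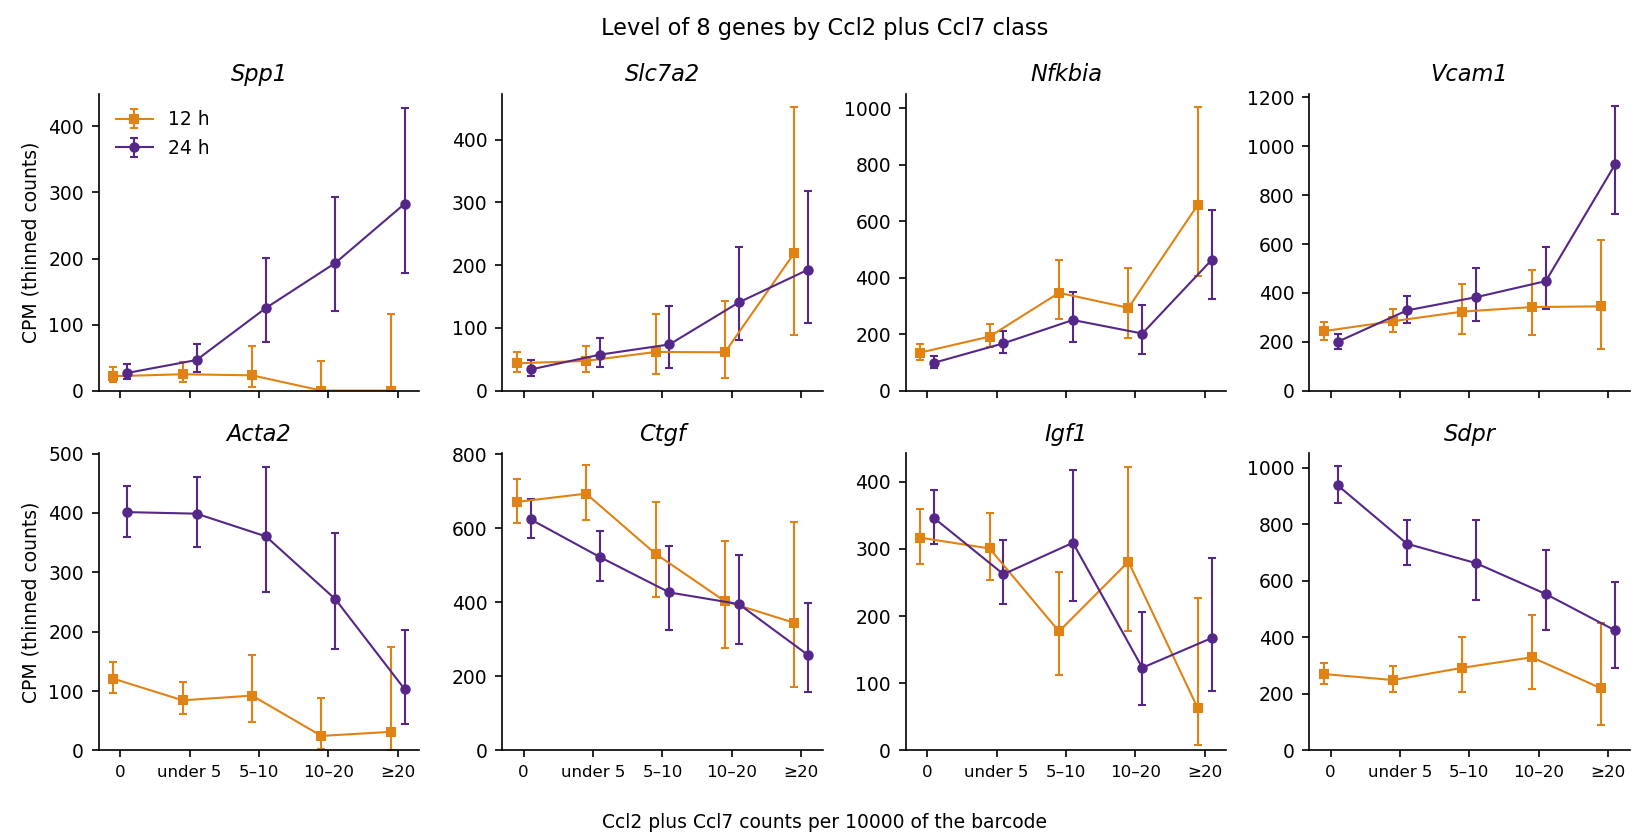
Level (CPM from thinned counts) of 8 genes against the Ccl2 plus Ccl7 content of the barcode in 5 classes, from a sum of 0 to 20 or more per 10000, at 12 h (squares) and 24 h (circles), with exact 95% Poisson intervals. At 24 h Spp1, Slc7a2, Nfkbia and Vcam1 are highest in the top class, at 283, 193, 463 and 926 CPM, and Acta2, Ctgf and Sdpr are lowest there, at 103, 257 and 424 CPM.

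Among the gene lists, that of NF-κB stood highest by its median. The lists were chosen with earlier results of these data known, so this rank is a description and not independent support. List members were counted at a mean of 20 CPM or more, a level at which 5.9% of 6206 genes were higher and 4.85% lower after thinning, and 0.999% higher and 0.709% lower with full counts, around an all-gene median log2 ratio of 0.02. Of 10 measured NF-κB targets 7 were 1.5-fold or more higher and 0 lower after thinning, with a median of 0.80, and 3 were higher and 0 lower with full counts, with a median of 0.49. Beside Slc7a2, Nfkbia and Vcam1, the thinned calls were Tnip1 (log2 ratio 0.91 thinned, 0.58 with full counts), an inhibitor of NF-κB signalling, Nfkb1 (0.87 and 0.45), a subunit of NF-κB itself, Ier3 (0.74 and 0.53), a survival gene, and Tnfaip2 (0.74 and 0.45). Not past the limit were Ptgs2, the inducible cyclooxygenase (0.25 and 0.25), Tnfaip3, the deubiquitinase A20 (0.23 and 0.19), and Sod2, the mitochondrial superoxide dismutase (0.01 and -0.09). Of the thinned calls, Tnip1 fell short in the second (0.43) and the third draw (0.51), and Nfkb1 in the third (-0.01) and depth-paired (-0.0016). Tnfaip2 fell short in the second (-0.06), the third (0.48) and paired (0.42), and Ier3 paired (0.575). Il6 and Csf1 were counted with the chemokines and cytokines, not on this list.

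The summed list, which includes the same genes and is not separate support, gave the same order with more counts behind it. It came to 1814 CPM (1671 to 1966) in thinned high barcodes and 899 CPM (837 to 965) in sum-0 barcodes, a ratio of 2.02 (1.81 to 2.25). A high barcode had 4 counts of the list at the median (quartiles 2 and 5), and a sum-0 barcode 2 (quartiles 1 and 3), so single barcodes of the 2 groups overlap widely. Without Nfkbia, Vcam1 and Slc7a2 the other 26 genes still gave 870 and 567 CPM, a ratio of 1.53 (1.32 to 1.78), and with full counts 826 and 621 CPM, a ratio of 1.33 (1.23 to 1.44). Within depth classes, full counts of the whole list came to 1918 CPM (1695 to 2163) in 45 high and 929 CPM in 154 sum-0 barcodes of 2000 to 4000 counts, 1709 CPM (1577 to 1848) and 923 CPM in those of 4000 to 8000, and 1662 CPM (1565 to 1763) and 957 CPM in deeper ones. The difference was present at each depth.

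The promoters of Nfkbia and Tnip1 are shown because both genes restrain NF-κB, are on the NF-κB list, were past 1.5-fold after thinning, and hold a κB-type motif. Tnip1, at 91.6 and 44.1 CPM in high and sum-0 barcodes, was just short of 1.5-fold with full counts and short of it in the second (0.43) and the third draw (0.51). The sequences run from 250 bases before to 50 after the annotated start (RefSeq, GRCm38.p6), 5′ to 3′ on the gene's strand. Capitals mark matches to GGG, any 3 bases and then TTCC, on either strand, and in Tnip1 a match on each strand overlaps the other.
Nfkbia, chr12:55492598-55492897, minus strand: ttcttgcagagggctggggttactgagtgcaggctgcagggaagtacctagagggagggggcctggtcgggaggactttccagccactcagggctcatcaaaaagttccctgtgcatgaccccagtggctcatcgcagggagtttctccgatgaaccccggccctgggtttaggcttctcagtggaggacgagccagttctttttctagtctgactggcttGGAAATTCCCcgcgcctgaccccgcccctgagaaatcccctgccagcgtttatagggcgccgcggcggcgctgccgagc
Tnip1, chr11:54962891-54963190, minus strand: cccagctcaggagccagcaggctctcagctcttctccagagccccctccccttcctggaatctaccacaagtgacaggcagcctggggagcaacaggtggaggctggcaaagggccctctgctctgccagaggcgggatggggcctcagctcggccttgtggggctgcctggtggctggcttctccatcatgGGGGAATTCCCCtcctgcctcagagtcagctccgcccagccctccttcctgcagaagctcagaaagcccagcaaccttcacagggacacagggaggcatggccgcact

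The motif was found in 1825 of 32851 promoter windows of this length (5.56%), so a match alone is common. Of the other measured NF-κB targets in the table, it was in the windows of Tnfaip3 and not in those of Tnfaip2, Ier3, Sod2 and Ptgs2. A match is a description of the letters and was not tied to binding in these cells.

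Genes of contraction and of YAP stood slightly lower as groups, beside all-gene median log2 ratios of 0.02 both thinned and with full counts. All 16 measured contractile genes had a full-count log2 ratio below 0, with a median of -0.31 (-0.33 thinned), though only Acta2 was past 1.5-fold. The summed list came to 15362 CPM (14941 to 15793) in high barcodes and 18669 CPM (18382 to 18960) in sum-0 barcodes, a ratio of 0.823 (0.797 to 0.849). Tpm1, a tropomyosin of actin filaments, had 1988 and 2701 CPM (-0.44 thinned, -0.51 full), Cnn2, a calponin, had 583 and 847 CPM (-0.53 and -0.41), and Myh9, the heavy chain of non-muscle myosin, had 687 and 672 CPM (0.03 and -0.02).

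Of 12 measured YAP targets 11 were below 0 with full counts, with a median of -0.33 (-0.37 thinned). Thinned calls were Ctgf, Dlc1, a regulator of the actin cytoskeleton (-0.73 thinned, -0.79 full), and Lats2, a kinase that restrains YAP (-0.66 and -0.17), and full-count calls were Ctgf and Dlc1. Cyr61, another matricellular target, had 205 and 274 CPM (-0.40 and -0.56). Amotl2, which binds YAP, had 250 and 370 CPM (-0.55 and -0.57), and Ankrd1 had 1405 and 1694 CPM (-0.27 and -0.28). The list summed to 3081 CPM (2894 to 3277) in high barcodes and 4012 CPM (3879 to 4148) in sum-0 barcodes, a ratio of 0.768 (0.715 to 0.824).

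Of 15 measured genes of cholesterol synthesis and uptake 13 were below 0 with full counts, with a median of -0.38 (-0.29 thinned), and 2 were past 1.5-fold lower. After thinning 1 was higher, Insig1 (0.93 thinned, -0.33 full), a brake on sterol synthesis, and 2 were lower, among them Hsd17b7 (-1.05 thinned, -0.56 full), an enzyme of the pathway. The summed list gave a ratio of 0.851 (0.741 to 0.975). Sc4mol, which stood furthest below after thinning, is listed there under its newer name Msmo1, which the table does not use, so it is not among the 15.

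**Figure D4:**
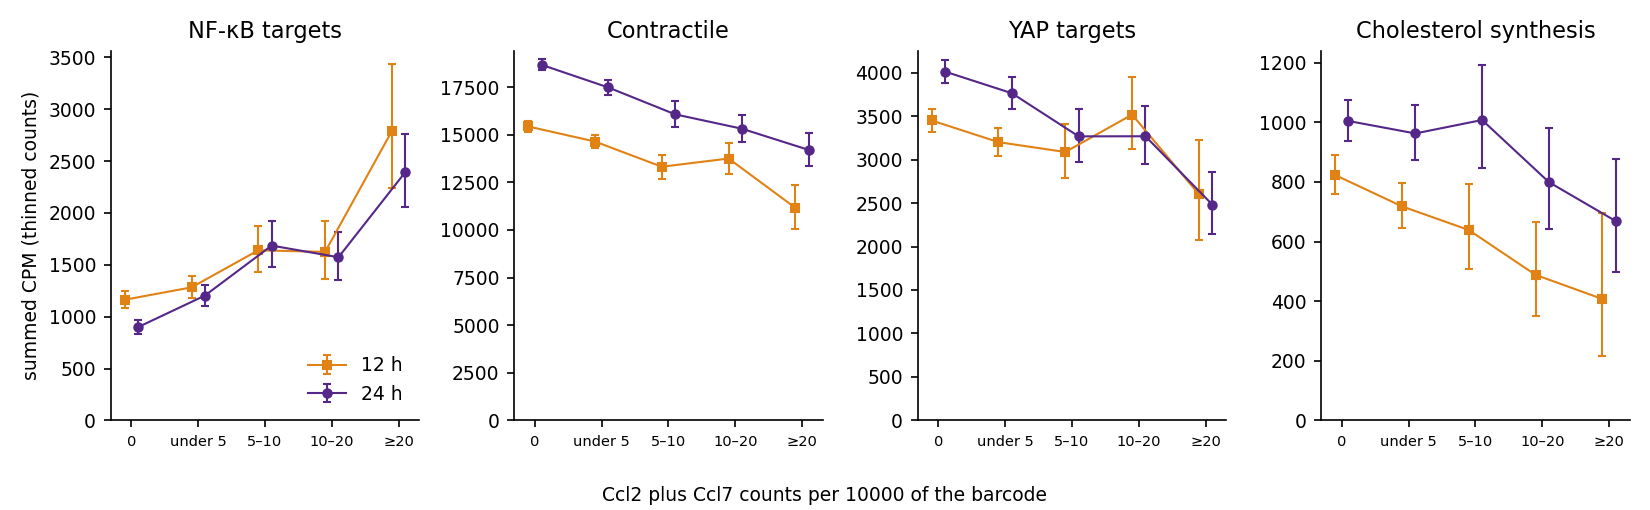
Summed level (CPM from thinned counts) of 4 gene lists against the Ccl2 plus Ccl7 content of the barcode in 5 classes, at 12 h (squares) and 24 h (circles), with exact 95% Poisson intervals. At 24 h the NF-κB list has 899 CPM in sum-0 barcodes and 1203 CPM in those between. In the bands of high barcodes it has 1685, 1573 and 2393 CPM from low to high, so the rise is not steady. The contractile list runs from 18669 CPM in sum-0 barcodes to 14201 CPM in the top class.

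TGF-β targets gave no common direction, and collagens leaned lower at 24 h but not at 12 h. Of 15 measured TGF-β receptors, targets and feedback genes, 3 were higher and 2 lower after thinning (2 and 1 with full counts), around a median of -0.12. Ctgf, one of those lower, stands on the YAP list as well. Smad3, a transducer of the TGF-β signal, was higher (36.6 and 11.6 CPM in high and sum-0 barcodes; 1.11 thinned, 0.71 full), and so was Tgif1, a corepressor of it (0.64 and 0.73). Pmepa1, a feedback inhibitor, had 565 and 780 CPM (-0.46 and -0.33). With full counts 10 of 12 collagens were below 0 at 24 h (median -0.18), and 5 of 12 at 12 h (median 0.02). At 24 h 0 were past 1.5-fold with full counts, and 1 was higher after thinning. Col1a1 had 415 and 443 CPM, Col3a1 had 424 and 398 CPM, and the fibronectin gene Fn1 had 3673 and 3361 CPM.

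Other secreted signals did not follow Ccl2 and Ccl7 as a group. Of 6 measured chemokines and cytokines 0 were higher and 1 lower after thinning and 1 higher and 0 lower with full counts. The thinned median was -0.08, while at 12 h 4 of 6 were above 0 with full counts (median 0.29, 0 called). The values that follow are of 24 h. Cxcl12, which guides stem cells and lymphocytes, had 1215 and 1353 CPM in high and sum-0 barcodes, Csf1, the macrophage growth factor, had 409 and 377 CPM, and Il6 had 30.5 and 41.8 CPM thinned (log2 ratio -0.35) but 68.1 and 53.8 CPM with full counts (0.29). Cxcl16, the one past 1.5-fold with full counts, had 58.0 and 51.04 CPM thinned, with log2 ratios of 0.16 thinned and 0.74 with full counts. Interferon genes, of which 0 of 8 passed either way after thinning and 1 was lower with full counts, summed to 1545 and 1640 CPM, a ratio of 0.942 (0.849 to 1.04). Ribosomal protein genes had a median of 0.02 over 83 members.

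The 12 h library allowed the same comparison in barcodes the 24 h rule did not use. Its 122 high and 368 sum-0 barcodes gave 54 of 2231 genes higher (2.42%) and 48 lower (2.15%) after thinning, and 6 of 2159 higher (0.278%) and 3 lower (0.139%) with full counts. The full-count genes were Nfkbia, Top2a, Nfkbiz, Vcam1, Sidt2 and Mbtd1, higher, and Dlc1, Zyx and Clu, lower. Of these, 2 higher genes (Nfkbia and Sidt2) and 2 lower genes (Dlc1 and Clu) were also called after thinning. Top2a and Mbtd1 had thinned log2 ratios of 0.11 and 0.10, against 1.06 and 0.60 with full counts. At a mean of 20 CPM or more, 7.13% of genes were higher and 6.02% lower after thinning, and 1.11% and 0.724% with full counts. The 11 genes higher at 24 h with full counts all had a log2 ratio above 0 at 12 h. Of the 11 lower genes 9 had one below 0. Over all genes at a mean of 20 CPM or more, the full-count median at 12 h was 0.007, so both signs were about equally common. Of the 24 h calls after thinning that were measured at both times, 3 of 24 higher genes (Nfkbia, Ptprn and Sdc1) and 3 of 21 lower genes (Acta2, Igf1 and Perp) were called at 12 h too. Of all 1922 genes measured at both times, 1.04% were called higher and 1.98% lower at 12 h, and across these genes, which are not independent replicates, the log2 ratios of the 2 times had Pearson's r of 0.10. Ptprn and Sdc1 passed with full counts at neither time.

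Nfkbia had a ratio of similar size at 12 h, though the times were not tested against each other. It had 369 CPM (297 to 454) in high barcodes and 135 CPM (109 to 164) in sum-0 barcodes, with log2 ratios of 1.39 thinned and 1.16 with full counts. Vcam1 had 332 and 243 CPM, with log2 ratios of 0.44 thinned and 0.69 with full counts, and Slc7a2 had 82.1 and 43.5 CPM, with 0.78 and 0.85. Vcam1 differed by depth class at 12 h, with a full-count ratio of 0.892 (0.565 to 1.37) at 2000 to 4000 counts. Its ratio was 1.64 (1.28 to 2.08) at 4000 to 8000 counts and 2.00 (1.61 to 2.49) in deeper barcodes. The NF-κB list had a median of 0.50 (0.40 with full counts) and 4 of 10 genes higher both ways. Of all genes at a mean of 20 CPM or more, 7.13% were higher after thinning and 1.11% with full counts. The sum of the list gave 1785 and 1163 CPM, a ratio of 1.53 (1.36 to 1.72). The interval lies below that of 24 h, 1.81 to 2.25, but the difference between the times was not tested and has 1 library on each side. By depth class at 12 h, the full-count ratio of the list was 1.21 (1.01 to 1.45) at 2000 to 4000 counts. That ratio was 1.62 (1.45 to 1.81) at 4000 to 8000 counts and 1.46 (1.34 to 1.59) in deeper barcodes.

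Spp1 counts were few at 12 h and did not stand apart beyond counting error. It had 3 thinned counts in 122 high barcodes (12.3 CPM, 2.54 to 35.97) and 16 in 368 sum-0 barcodes (21.7 CPM, 12.4 to 35.3). With full counts it had 21.7 and 16.5 CPM, a ratio of 1.31 (0.707 to 2.35), whose upper bound lies below the 24 h interval of 4.999 to 8.74. Sdpr had 308 and 310 CPM with full counts at 12 h, a ratio of 0.995 (0.859 to 1.15), and Ccdc80 had 93.9 and 76.2 CPM. Cxcl1, a neutrophil chemokine, had 22.9 CPM in high barcodes and 1.27 CPM, from 3 counts, in sum-0 barcodes of 12 h with full counts, a ratio of 18.0 (5.30 to 95.02), and 4.31 and 1.44 CPM at 24 h, a ratio of 3.01 (0.647 to 15.1).

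Among lower genes, Acta2 had 61.5 CPM (34.4 to 102) in high barcodes and 121 CPM (97.1 to 149) in sum-0 barcodes of 12 h, with log2 ratios of -0.87 thinned and -0.45 with full counts. Igf1 had 197 and 317 CPM (-0.66 and -0.44), Ctgf had 464 and 671 CPM (-0.52 and -0.47), and Zyx had 119 and 193 CPM with full counts (-0.65), though 140 and 158 CPM thinned (-0.16). The contractile list gave a ratio of 0.854 (0.821 to 0.888), the YAP list one of 0.918 (0.846 to 0.996) and the cholesterol list one of 0.678 (0.559 to 0.818). A cell cycle count was seen in 11.5% (6.42% to 18.5%) of thinned high barcodes and 17.7% (13.9% to 22.0%) of thinned sum-0 barcodes, and in 23.0% and 31.8% without thinning. The thinned intervals overlap. The summed levels gave no single direction. At 12 h Top2a was higher with full counts but not after thinning, as above, and 13 of 21 G2/M genes were above 0 with full counts. At 24 h Mki67 had 0 full counts in high barcodes and 23 in sum-0 barcodes. Few barcodes carried it, 0.696% of thinned sum-0 barcodes, and with barcodes paired by depth its log2 ratio was -0.12.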

How the data were processed

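The authors deposited whole-number counts per gene and barcode for 17391 genes and 3298 barcodes, not normalized. Whether UMIs were collapsed is not stated. The submitters' processing notes name STAR 2.5.3a and mm10. The counter, the annotation and any barcode filter were not stated. No barcode in the table has fewer than 200 genes or more than 4.99% mitochondrial counts.

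Barcodes of 2000 or more counts were classed by full counts, thinned to 2000 counts each without replacement, and summed per class to CPM without Ccl2 and Ccl7. Calls needed 100 CPM in either class and 1.5-fold on log2 (CPM + 10). CPM intervals are exact Poisson, shares exact binomial (Clopper-Pearson) and ratios exact conditional binomial, at 95%. With 1 library per time no test was made. Doublets were called with Scrublet and kept. The procedure was tested on simulated barcodes with planted changes and counting error only. That test cannot show how the 1.5-fold calls behave where cells differ beyond counting error. The members and gene lists were chosen with earlier results of these data known. Named genes are the 15 highest and 15 lowest thinned ratios (mitochondrial, ribosomal and predicted genes left out), preset genes and leading list members; genes named from full counts, Nfkbiz, Mgst1, Zyx, Mmd, Hmga2, Cd47, Adamts5, Col11a1 and those of 12 h among them, were chosen after their values were seen. Alternatives covered depth, draw, scaling, floor, pseudocount, fold and the rule. TMM factors came from edgeR 4.0.16 and size factors from DESeq2 1.42.0 under R 4.3.3. Scrublet was run through scanpy 1.11.5, and all other steps in Python 3.11.15 with scipy 1.17.1 and numpy 2.4.6. Some named genes are not reported here.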

Additional observations from a re-analysis of the deposited data

Results flagged for a closer look

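Spp1 had a log2 ratio of high over sum-0 barcodes of 2.42 at 24 h and -0.51 at 12 h after thinning. With full counts the values were 2.33 and 0.26. The opposite signs after thinning drew attention to it, and the difference between the times was not tested.

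Ssna1, a microtubule-associated gene, was the only gene called in opposite directions at the 2 times, with a log2 ratio of 0.61 at 24 h and -1.22 at 12 h after thinning. With full counts it was 0.15 and -0.48, and neither was past 1.5-fold. The difference was not tested.

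Ccl2 and Ccl7 were also present in barcodes that the rule leaves out for their depth. The 506 barcodes under 2000 counts at 24 h held 138 counts of the pair, or 444 CPM (373 to 524), against 354 CPM (339 to 369) in the 822 deeper barcodes. In so shallow barcodes 1 count passes the rule's share, so none of them was classed.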

How the results depend on the processing

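Counts of genes called at 24 h, 43 higher and 28 lower, moved with most settings. With full counts they were 11 and 11, with depth-paired barcodes 11 and 16, with a 50 CPM pseudocount 10 and 10, with a 2-fold limit 7 and 2, with a 200 CPM floor 6 and 10, with a 50 CPM floor 176 and 142, and with none 792 and 755. With TMM factors they were 22 and 45, with DESeq2 factors 24 and 43, and on totals without mitochondrial and ribosomal protein genes 79 and 49. Barcodes thinned to 4000 counts gave 23 higher genes. Lower genes numbered 45 without barcodes 1 base from another and 50 without cell cycle barcodes. High barcodes at 10 or more per 10000 gave 92 and 83. Among settings chosen after seeing the data, a rule on Ccl2 alone gave 107 and 89, on Ccl7 alone 76 and 63, on 5 to 10 per 10000 130 and 97, and full counts without cell cycle barcodes 14 higher genes. At 12 h full counts gave 6 and 3. Shares of barcodes with a chemokine count after thinning were 28.2% at 12 h and 31.5% at 24 h, and at a limit of 10 per 10000 the shares at 6, 12 and 24 h were 0%, 7.78% and 11.7%.

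Among values well away from 0 in the results above, sign turned for Nfkb1 (-0.0016 depth-paired, -0.0122 in the third draw), Crot (-0.0703) and Tnfaip2 (-0.0573) in the second draw, Oaf (-0.18) and Rnf11 (0.00534) in the third draw, and the Wnt list (0.0297) and Cxcl1 (-0.30) in high barcodes of 5 to 10 per 10000. Counting smaller values too, 16 of 66 genes and 22 of 30 list medians had the other sign under at least 1 setting, among them Il6 (to 0.30), Prl2c2 (to -0.29), Tnfaip3 (to -0.30), Cxcl16 (to -0.17), Adamts5 (to 0.30) and the medians of complement (to -0.10) and immediate early genes (to -0.15). The cause was not tested. The log2 ratio of Spp1 stayed at 1.62 to 2.91, Slc7a2 at 0.94 to 1.98, Nfkbia at 1.10 to 1.68, Vcam1 at 0.91 to 1.91, Sdpr at -0.998 to -0.50 and the NF-κB list median at 0.42 to 0.97 over all settings run, while Acta2 ranged from -1.02 to -0.15 and Igf1 from -1.26 to -0.16. No paired analysis was possible because each time point had 1 library. Depth limits genes under about 100 CPM.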

Other observations

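Several lists leaned one way with no or few members past 1.5-fold. The all-gene median log2 ratio was 0.02 with full counts, and TMM factors moved the thinned one from 0.02 to -0.04. Medians as small as those below are therefore a description only. With full counts at 24 h, 8 of 8 measured genes of the ATF4 stress response were above 0 (median 0.15, 0 called), and so were 13 of 17 lysosomal genes (median 0.14, 0 called). ER chaperones were below 0 in 14 of 15 (median -0.14, 0 called). After thinning 3 ATF4 genes were called higher, Ddit3 (log2 ratio 0.82 thinned, 0.23 full), a stress transcription factor, Psph (0.74 and 0.57), an enzyme of serine synthesis, and Slc3a2 (0.73 and 0.05), a subunit of amino acid carriers. Of all genes at a mean of 20 CPM or more at 24 h, 5.9% were higher after thinning and 0.999% with full counts. At 12 h 4 of 9 ATF4 genes were above 0 with full counts.

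Pdgfra, a receptor of platelet-derived growth factor that marks fibroblasts, had 45.8 CPM (15 thinned counts) in high barcodes and 12.8 CPM (11 counts) in sum-0 barcodes of 24 h, with log2 ratios of 1.29 thinned and 0.89 with full counts. Pdgfrb had 36.6 and 46.4 CPM. Egr1, an immediate early transcription factor, had 45.8 and 16.2 CPM, with log2 ratios of 1.09 thinned and 1.18 with full counts at 24 h, and -0.57 and 0.24 at 12 h. Prl2c2, a proliferin, had 559 and 461 CPM at 24 h (full-count ratio 1.37, 1.24 to 1.499) and 1875 and 1293 CPM at 12 h (1.33, 1.24 to 1.41).

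Clu, the chaperone clusterin, was lower in high barcodes with full counts at both times, at a log2 ratio of -1.02 at 24 h and -1.01 at 12 h. These genes were chosen after their values were seen.

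Other preset genes were near the limit of detection at 24 h. Tagln, a smooth muscle gene, had 3.05 CPM in thinned high barcodes and 5.80 CPM in sum-0 barcodes, Icam1, an adhesion molecule, 0 and 4.64 CPM, and Mki67, a marker of dividing cells, 0 and 5.80 CPM. Cxcl5, a neutrophil chemokine, had 1 full count in high barcodes and 0 in sum-0 barcodes.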
